A study of Mus musculus with 12 samples.

Results

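Tunicamycin was set against vehicle in livers of Ire1α null mice. The comparison held 6 of the 12 arrays in the series, 3 from null mice given the drug and 3 from null mice given vehicle, chosen by their titles. Every mouse was of the C57Bl/6J strain and 3 months old, and each received an intraperitoneal injection of either tunicamycin, at a dose of 2 µg for each g of weight, or its dextrose vehicle. Livers were taken 8 h after the injection. The null mice are described as conditional nulls and are titled Fe-CRE+, and the control mice are titled Fe+CRE+, so a Cre label is carried by all 4 groups. The sources used here do not give the promoter that drives Cre or the deleted part of Ern1, the gene for Ire1α. The 6 arrays of control livers, 3 with tunicamycin and 3 with vehicle, give the response with Ire1α present. The labels call the 3 samples of a group biological replicates.

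Tunicamycin blocks the first step of N-linked glycosylation, so that glycoproteins misfold in the endoplasmic reticulum (ER) and the unfolded protein response starts. Ire1α is an ER membrane kinase and RNase that splices Xbp1 mRNA into the form that encodes an active transcription factor, and that also cuts other mRNAs at the ER. The other sensors are Perk, encoded by Eif2ak3, which phosphorylates eIF2α and so raises translation of Atf4, and Atf6, which is cut in the Golgi to release a transcription factor for chaperone genes. Hepatocytes secrete most plasma proteins and rely on this response when secretory load or glycosylation is disturbed.

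RNA was hybridised to Affymetrix Mouse Genome 430 2.0 arrays, and levels below are the deposited intensities, a linear brightness for each probe set. The null tunicamycin array of replicate 2 stood apart. It carried kidney transcripts, with Umod, the kidney's uromodulin, at 85.2, 8801 and 17.9 in the 3 null tunicamycin arrays, and Kap, a proximal tubule gene, at 49.3, 6989.9 and 25.2. Of 24 tested kidney markers, 17 were more than 1 log2 unit higher there than on any of the other 11 arrays, and the summed intensity of the 24 was 43275 there against 1369 to 2600 elsewhere. Hepatocyte markers summed to between 91691 and 108522 on all 12 arrays, and albumin was not called different (0.08 on the log2 scale). Every change below is therefore a log2 fold change ± SE over 3 arrays a group, followed in square brackets by the change with that array left out. The ratio of 5′ to 3′ β-actin probe sets was 0.50 ± 0.179 (SD, n = 3) with vehicle and 0.309 ± 0.116 with tunicamycin in null livers, a difference of -0.19 (exact permutation p = 0.2, two-sided, where 0.1 is the smallest possible). The same ratio for Gapdh was 0.372 ± 0.241 and 0.401 ± 0.0327 (exact permutation p = 0.9). The part of kidney RNA or of RNA quality in the other results was not tested beyond leaving that array out and fitting each ratio as a covariate. In bulk liver, fewer cells of a type and less RNA per cell cannot be told apart.

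Ern1 itself rose in null livers by the probe set in use. Its intensity was 1489, 1142 and 1083 with vehicle and 4793, 2147 and 3894 with tunicamycin, without overlap, a change of 1.27 ± 0.24 [1.52] with an adjusted p of 0.00429. Of 5 Ern1 probe sets this brightest was the one called, and the others changed by between -0.80 and 0.11. With the mean of the probe sets the change was -0.0042, so the direction for the gene was not settled. Whether any of these probes lies in the deleted part is not given, so the level does not check the genotype.

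Livers labelled as Ire1α null still responded on a large scale. Of 14568 genes tested, 1105 rose (7.59%) and 1344 fell (9.23%) at an adjusted p under 0.05 in a limma fit, and 457 rises and 425 falls were at least 2-fold. Without replicate 2, 1031 rose (7.08%) and 1155 fell (7.93%). The same direction was called with and without that array for 1857 genes, 75.8% of the calls, and none was called in opposite directions. Replicate 2 had the lowest of the 3 tunicamycin values for 696 of the 1344 falls (51.8%), against 38.5% of all genes tested. It had the highest value for 32.1% of the rises, against 40.5% of all genes tested. The number of calls was 2449 in all, and was 1615 without vehicle replicate 1 and 1613 without tunicamycin replicate 3. The vehicle and tunicamycin arrays did not overlap for 4818 genes (33.1%). The largest rises and falls named below were chosen only among such genes, so their lack of overlap adds no support. In control livers 1693 genes rose (11.6%) and 1943 fell (13.3%), and 870 of the null rises (78.7%) and 1021 of the null falls (76%) were called the same way there. These were 51.4% of the control rises and 52.5% of the control falls. Scaling moved the split of calls: 1256 rose and 703 fell with each array centred on its median, and 1477 rose and 512 fell on the deposited scale, which moved the median change of all genes from -0.07 to 0.08. Falls of small size below are read against that shift of 0.15. Counts of calls in each gene list below are read against the 7.59% of all genes that rose and the 9.23% that fell.

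The ATF4 and CHOP arm held several of the steepest rises. Of 21 tested regulators and targets of these factors, 17 rose and none fell, with a median change of 2.05 against -0.07 for all genes (16 rose without replicate 2, median 1.94, and 16 rose in control livers, median 2.11). Nupr1, a small stress-induced chromatin protein, had an intensity of 68.6, 30.4 and 10.4 with vehicle and of 6314, 5688 and 7431 with tunicamycin, a change of 7.03 ± 0.32 [7.08]. Ddit3, which encodes the pro-apoptotic factor CHOP, went from 293, 268 and 121 to 11004, 9677 and 11177, a change of 5.37 ± 0.24 [5.39]. Each tunicamycin array was far above every vehicle array for both genes. Atf3, a stress transcription factor downstream of Atf4, was at 82.0, 51.5 and 47.1 with vehicle and 4569, 2697 and 4227 with tunicamycin, a change of 5.54 ± 0.22 [5.70]. Trib3, a pseudokinase that CHOP and Atf4 induce, was at 412, 359 and 308 and then 6902, 5049 and 7381, a change of 3.93 ± 0.21 [4.04]. Atf4, whose own mRNA also rose, stood at 764, 1075 and 949.6 with vehicle and 4191, 4705 and 4534 with tunicamycin, a change of 2.05 ± 0.14 [1.94]. In all of these the groups did not overlap, and the largest adjusted p was 3.8e-06. Ppp1r15a, the phosphatase subunit that reverses eIF2α phosphorylation, changed by 2.85 ± 0.19 [2.67] and Chac1, which degrades glutathione, by 2.61 ± 0.40 [2.23]. Cebpb (-0.15 ± 0.34 [0.07]), Stc2 (-0.27 ± 0.17 [-0.44]), Jdp2 (0.11 ± 0.28 [-0.25]) and Cth (-0.05 ± 0.13 [-0.08]) were the 4 members not called. The interaction test in limma called none of the 21 responses different from control livers, and at an unadjusted p under 0.05 it had 3 lower and 1 higher. The list is drawn from textbook targets and several were known to respond in these data, so its count is a description.

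**Figure D1:**
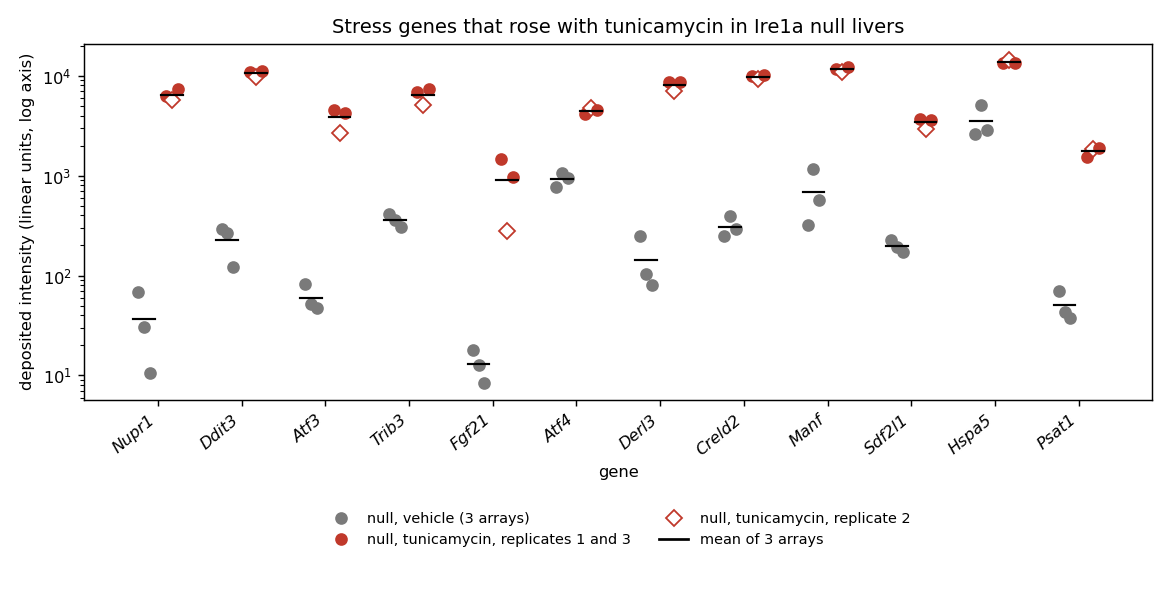
Deposited intensity (vertical log axis, linear units) of stress genes that rose, by gene, in null livers; grey points are the 3 vehicle arrays, red points tunicamycin replicates 1 and 3, open diamonds tunicamycin replicate 2, and bars the mean of 3 arrays. For every gene shown the tunicamycin arrays lie above the vehicle arrays, and replicate 2 is farthest below the others for Fgf21.

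Promoters of the steepest rises that hold a C/EBP-ATF response element, the composite site that Atf4 binds, are shown because these genes moved together. The sequences are the 250 bases before the most upstream start in RefSeq's GRCm38.p6 table, read 5′ to 3′ on the gene's strand, with the matched element (TGATGNAAN on either strand, where N is any base) in capitals. They lie at chr7:126625471-126625720 for Nupr1, chr1:191183334-191183583 for Atf3, chr7:45615491-45615740 for Fgf21 and chr6:7693210-7693459 for Asns, all on the minus strand.

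Nupr1: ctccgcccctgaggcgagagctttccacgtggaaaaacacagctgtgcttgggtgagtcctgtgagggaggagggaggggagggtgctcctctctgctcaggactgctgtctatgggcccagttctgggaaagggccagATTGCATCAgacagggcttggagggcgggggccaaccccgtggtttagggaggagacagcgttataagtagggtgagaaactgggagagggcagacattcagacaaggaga
Atf3: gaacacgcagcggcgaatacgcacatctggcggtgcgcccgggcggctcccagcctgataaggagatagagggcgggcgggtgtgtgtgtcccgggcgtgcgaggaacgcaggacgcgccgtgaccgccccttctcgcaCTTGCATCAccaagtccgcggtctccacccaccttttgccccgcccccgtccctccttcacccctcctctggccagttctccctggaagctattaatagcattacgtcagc
Fgf21: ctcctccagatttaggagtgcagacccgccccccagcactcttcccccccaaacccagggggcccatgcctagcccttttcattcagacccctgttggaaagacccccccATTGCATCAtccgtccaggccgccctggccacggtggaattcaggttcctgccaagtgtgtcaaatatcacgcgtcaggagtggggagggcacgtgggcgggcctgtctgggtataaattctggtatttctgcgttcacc
Asns: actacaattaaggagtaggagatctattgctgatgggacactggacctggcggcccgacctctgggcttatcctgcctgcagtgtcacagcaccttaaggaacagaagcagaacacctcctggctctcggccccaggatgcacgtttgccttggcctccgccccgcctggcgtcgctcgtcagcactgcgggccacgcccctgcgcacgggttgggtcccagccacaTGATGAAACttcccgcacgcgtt

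The element was on the minus strand of the printed run in Nupr1, Atf3 and Fgf21, and on its plus strand in Asns. It was found in 950 of 27025 promoters of the table (3.52%), in 5 of the 19 promoters of the ATF4 and CHOP list (26.3%) and in 3 of 12 promoters of the aminoacyl-tRNA synthetases (25%). Among the called rises with a promoter it was in 25 of 906 (2.76%), and in 5 of the 90 that rose at least 4-fold (5.56%). It was in 30 of 1077 promoters of the falls (2.79%), a share like that of the rises, and in 258 of 11657 promoters of all genes tested (2.21%). A match is a run of letters and no evidence of binding.

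Among the stress sensors and their processing enzymes 6 of 11 tested genes rose and none fell (4 without replicate 2, and 7 in control livers), with a median of 0.58. Xbp1 mRNA, the splicing target of Ire1α, rose in null livers, from 3112, 4218 and 2852 with vehicle to 9258, 7679 and 9352 with tunicamycin, a change of 1.21 ± 0.14 [1.25]. In control livers it went from 4295, 3395 and 3649.6 to 6255, 6271 and 6236, a change of 0.55, and the difference between the responses was not called (0.66 ± 0.19 [0.70], adjusted p = 0.215). These values are from the brightest Xbp1 probe set alone. The others changed by 0.98 [0.99], 2.35 [2.34] and 0.20 [0.24] in null livers, and the last was not called. The values do not separate spliced from unspliced Xbp1, so splicing was not measured here. Atf6 was at 451, 718 and 684 and 2218, 1598 and 2027, a change of 1.44 ± 0.16 [1.46], and Creb3l2, an Atf6-like membrane-bound factor, at 124, 166 and 121 and 438, 519 and 619, a change of 1.63 ± 0.19 [1.51]. Both sets of arrays were apart for each of these genes. Eif2ak3, chosen after its values were seen, was called at 1.12 ± 0.33 with all arrays and had a change of 0.67 without replicate 2, where its call was lost (adjusted p = 0.068). It was lost without vehicle replicates 1 or 2 or tunicamycin replicate 2 (largest adjusted p 0.118). Mbtps1 (0.25 ± 0.13 [0.25]) and Mbtps2 (0.35 ± 0.20 [0.33]), the Golgi proteases that cut Atf6, and Creb3l3 (0.16 ± 0.15 [0.29]), a liver factor of the same family, were not called.

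Most ER chaperones rose. Of 27 tested, 17 rose and 1 fell, with a median change of 1.03 (15 and 0 without replicate 2, median 0.95), against 21 and 0 in control livers, median 1.13. Hspa5, the Hsp70 of the ER known as BiP, had an intensity of 2642, 5145 and 2843 with vehicle and 13304, 14345 and 13303 with tunicamycin, a change of 1.83 ± 0.19 [1.79]. All 3 tunicamycin arrays stood above all 3 vehicle arrays. These values are from the brightest Hspa5 probe set, and the others changed more, by 2.97 [2.94] and 2.44 [2.52]. Creld2, a secreted ER stress protein, changed by 4.78 ± 0.23 [4.78], from 247, 390.5 and 291 to 10015, 9239 and 10257. Manf, a secreted cofactor of BiP, was at 322, 1178 and 575 and then 11611, 11024 and 12213, a change of 4.08 ± 0.39 [4.07]. Sdf2l1, which works with BiP in a complex, was at 225, 195 and 172 and then 3706, 2903 and 3639, a change of 3.82 ± 0.17 [3.85]. The groups were apart in each, with a largest adjusted p of 7.51e-05. Dnajb11 (2.41 ± 0.18 [2.41]) and Dnajb9 (1.49 ± 0.26 [1.16]), J-domain partners of BiP, also rose. Dnajb9 is widely used as a target of spliced Xbp1, and it went from 993, 1109 and 1534 to 3553, 5776 and 3115 in null livers, where the array of replicate 2 was the highest. In control livers its change was 1.91, with no interaction called (adjusted p = 0.869). Hsp90b1, the ER Hsp90, changed by 0.91 ± 0.11 [0.87], from 6052, 6751 and 6460.1 to 12839, 13609 and 13229. Its change stayed between 0.87 and 0.93 when any 1 null array was left out, but reached 2.32 among the other settings tried. Fkbp14, a prolyl isomerase of collagen, was the member called lower, at -0.60 ± 0.19 [-0.67], a call lost without vehicle replicates 1, 2 or 3 or tunicamycin replicates 1, 2 or 3 (largest adjusted p 0.153) and under both other scalings, the centring of arrays on their median and the deposited scale. It rose in control livers (1.13), and the interaction was called (-1.73 ± 0.26 [-1.81], adjusted p = 0.0136). Fkbp11, another isomerase and a known target of spliced Xbp1, had a change of 1.03 ± 0.32 [1.16] in null livers, with an adjusted p of 0.0484 that became 0.0517 without replicate 2, and of 3.52 in control livers. Its difference between genotypes was -2.49 ± 0.46 [-2.36] (adjusted p = 0.0298), a call lost without vehicle replicates 1 or 2 or tunicamycin replicate 1 (largest adjusted p 0.0993). Its call in null livers was lost without vehicle replicates 1, 2 or 3 or tunicamycin replicates 1, 2 or 3 (largest adjusted p 0.177).

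Promoters with an ER stress element, CCAAT and CCACG separated by 9 bases of any kind, are shown for Hspa5, on which this element is best known, and for the steepest rises that hold it, in capitals on either strand. They were read as before, at chr2:34771840-34772089 for Hspa5, chr10:75893148-75893397 for Derl3 and chr15:88819396-88819645 for Creld2, all on the plus strand.

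Hspa5: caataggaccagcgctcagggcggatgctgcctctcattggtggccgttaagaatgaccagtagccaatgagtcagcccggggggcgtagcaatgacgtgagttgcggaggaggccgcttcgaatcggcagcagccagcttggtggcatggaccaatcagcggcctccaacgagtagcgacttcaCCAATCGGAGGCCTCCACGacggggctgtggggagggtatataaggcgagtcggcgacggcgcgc
Derl3: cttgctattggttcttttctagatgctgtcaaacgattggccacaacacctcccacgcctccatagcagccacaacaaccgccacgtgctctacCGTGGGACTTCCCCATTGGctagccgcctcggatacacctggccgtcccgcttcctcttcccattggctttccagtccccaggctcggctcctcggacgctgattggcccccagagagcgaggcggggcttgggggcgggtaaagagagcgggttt
Creld2: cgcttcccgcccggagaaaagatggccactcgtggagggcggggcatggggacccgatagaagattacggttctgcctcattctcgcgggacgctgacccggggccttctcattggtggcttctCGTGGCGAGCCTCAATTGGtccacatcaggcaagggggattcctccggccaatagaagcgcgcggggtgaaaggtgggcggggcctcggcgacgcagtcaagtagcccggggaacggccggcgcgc

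The element stood on the plus strand in Hspa5 and on the minus strand in Derl3 and Creld2. It was in 33 of 27025 promoters of the table (0.122%), in 12 of the 906 promoters of called rises (1.32%), in 5 of 90 for rises of at least 4-fold (5.56%) and in 0 of 1077 for falls. Of 23 chaperone promoters 6 held it (26.1%). The shorter ERSE-II, ATTGG and CCACG separated by any base, was in 9 promoters of the table (0.0333%) and in 3 of the called rises (0.331%). Alg12, the neighbour of Creld2 on the other strand, shares the same element, and rose as well, from 161, 144 and 91.6 to 524, 249 and 544, a change of 1.36 ± 0.25 [1.60]. A pair that shares its promoter does not count as separate evidence.

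Of 21 tested protein disulfide isomerases and ER oxidases, 10 rose and 3 fell (10 and 3 without replicate 2, and 12 and 3 in control livers), with a median of 0.49. Pdia4, a multi-domain isomerase, went from 291, 404 and 263 to 4529.6, 2646 and 4556, a change of 3.35 ± 0.25 [3.53]. Pdia6, which also dampens stress signalling, changed by 2.75 ± 0.28 [2.69], and Pdia3, which folds glycoproteins with calreticulin, by 2.52 ± 0.34 [2.55]. All 3 rose clear of the vehicle arrays, with a largest adjusted p of 0.000481. Ero1b, the stress-induced oxidase that recharges these enzymes, was at 1001, 1019 and 974 and then 6262, 4527 and 6105, a change of 2.26 ± 0.13 [2.34]. Gpx7, an ER peroxidase, fell (-1.29 ± 0.22 [-1.20]). The other members called lower were Tmx2 (-0.47 ± 0.13 [-0.54]), lost without vehicle replicates 1 or 2 or tunicamycin replicates 1 or 3 (largest adjusted p 0.116), and Tmx4 (-0.52 ± 0.16 [-0.66]), lost without vehicle replicates 2 or 3 or tunicamycin replicates 1 or 3 (largest adjusted p 0.151), and neither was called under either other scaling. Only 1 gene of the list was called lower after centring on the median.

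Of 27 tested genes of ER-associated degradation, which returns misfolded proteins to the cytosol, 11 rose and 1 fell (10 and 1 without replicate 2), against 20 and 1 in control livers. The median change was 0.36 in null and 0.97 in control livers. Derl3, a derlin of the retrotranslocation channel, was at 248, 104 and 80.0 with vehicle and 8628, 7002 and 8759 with tunicamycin, a change of 5.66 ± 0.31 [5.70]. Sel1l, the adaptor of the ubiquitin ligase Hrd1, went from 1988, 2173 and 1787 to 9341, 8314 and 10283, a change of 2.05 ± 0.13 [2.08]. Edem1, which takes mannose-trimmed glycoproteins to this path, went from 1661, 1315 and 1457 to 4185, 3729 and 4401, a change of 1.26 ± 0.15 [1.26]. The groups were apart in each. Herpud1 (1.32 ± 0.20 [1.29]) and Selenos (1.47 ± 0.16 [1.45]), membrane partners of the same complex, rose too. Syvn1, the ligase Hrd1, changed by 2.87 ± 0.13 [2.94] in null livers, from 543, 688 and 499 to 5449, 4041 and 5360.0, and by 3.87 in control livers. Its response was lower in null livers (-0.99 ± 0.19 [-0.91], adjusted p = 0.0366, and 0.0591 without replicate 2), a call lost without vehicle replicates 1, 2 or 3 or tunicamycin replicates 1, 2 or 3 (largest adjusted p 0.0933). Rnf5, another ER ligase, was the member called lower, at -0.57 ± 0.15 [-0.63], and it lost the call without vehicle replicate 1 or tunicamycin replicate 3 (largest adjusted p 0.0844). With arrays centred on their median, and on the deposited scale, 14 genes of this list rose and 0 fell.

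**Figure D2:**
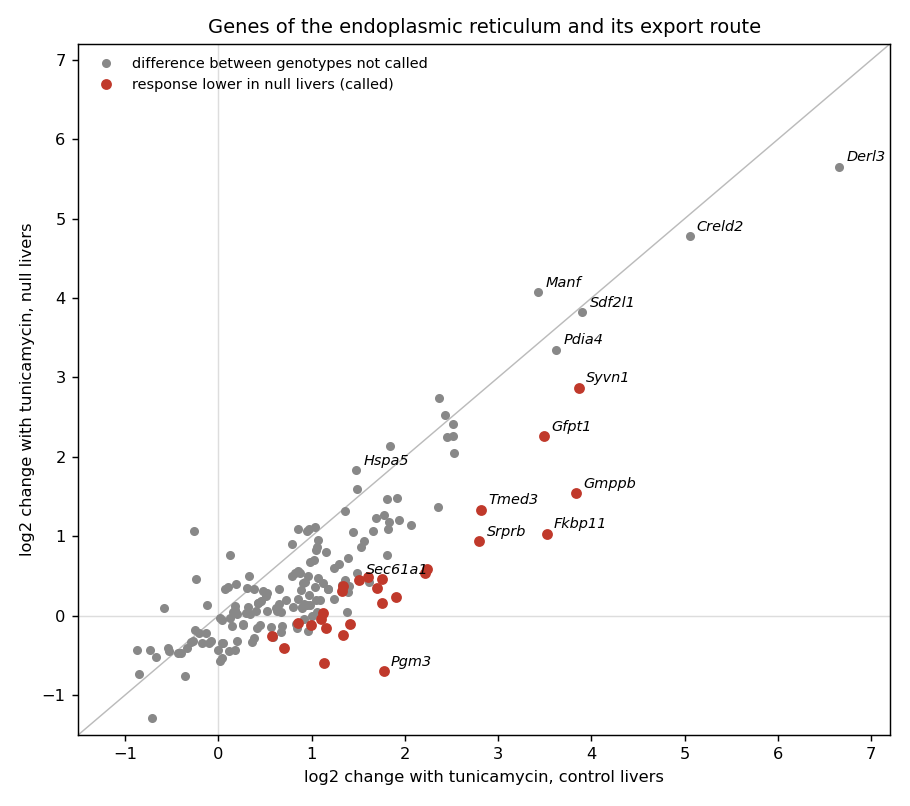
Log2 change with tunicamycin in null livers (vertical axis) against control livers (horizontal axis) for the 181 tested genes of 6 ER lists; each point is a gene, red where the response was called lower in null livers, and the diagonal marks equal change. The 27 red points lie below the diagonal, while Creld2, Sdf2l1, Manf, Pdia4 and Hspa5, each drawn by its brightest probe set, lie close to it. Other Hspa5 probe sets changed more in null livers (2.97 and 2.44), and compression of bright signals was not tested.

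Among the 6 ER lists the share of genes that rose was lowest for transport from the ER to the Golgi (18.4%), N-glycosylation (20.5%) and translocation into the ER (20.8%). Each share was still above the 7.59% of all genes tested that rose in null livers. Of 24 genes of ER translocation 5 rose and none fell in null livers, with a median of 0.29, and 18 rose in control livers, with a median of 1.00. Without replicate 2, 2 rose (median 0.24), and 2 or 3 rose without any of the other arrays of null livers except tunicamycin replicate 1, where 5 rose. With each array centred on its median 9 rose (median 0.45), and 10 rose on the deposited scale (median 0.53). Sec61a1, the channel through which new proteins pass, had an intensity of 1176, 1399.8 and 1083 with vehicle and 1839, 1980.0 and 2114 with tunicamycin in null livers, a change of 0.45 ± 0.14 [0.36]. In control livers it went from 1442, 1344 and 1487 to 4668, 5059 and 4479.7, a change of 1.51, and the responses differed (-1.05 ± 0.20 [-1.15], adjusted p = 0.0339). Srprb, the membrane anchor of the signal recognition particle receptor, was at 171, 210.3 and 184 and 350.0, 559 and 416 in null livers, a change of 0.94 ± 0.26 [0.63]. In control livers it was at 265, 160.2 and 212 and 1513, 2361 and 1745, a change of 2.80, and the responses differed (-1.86 ± 0.37 [-2.17], adjusted p = 0.0434). In null livers neither gene's arrays overlapped, but both calls were lost without tunicamycin replicate 2 (adjusted p = 0.134 and 0.0771). Dimmer probe sets changed by between 0.15 and 0.64 for Sec61a1 and by 0.40 and 0.22 for Srprb, and none of them was called. The null call of Sec61a1 was lost without vehicle replicates 1, 2 or 3 or tunicamycin replicates 2 or 3 (largest adjusted p 0.145), and that of Srprb without vehicle replicates 1, 2 or 3 or tunicamycin replicate 2 (largest adjusted p 0.0895). The call on the difference between genotypes was lost for Sec61a1 without vehicle replicates 1, 2 or 3 or tunicamycin replicates 1 or 3 (largest adjusted p 0.0909), and for Srprb without vehicle replicates 1, 2 or 3 or tunicamycin replicates 1 or 3 (largest adjusted p 0.114). Sec11a, the catalytic subunit of signal peptidase, kept its rise whichever of the 6 arrays was left out (1.23 ± 0.11 [1.21]), as did its partner Spcs2 (0.65 ± 0.14 [0.55]), though not when its probe sets were averaged. Sec61b (-0.15 ± 0.18 [-0.33]), Ssr1 (-0.16 ± 0.18 [-0.34]) and Tram1 (-0.26 ± 0.12 [-0.28]), of the same channel complex, were not called.

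Of 38 genes of transport from the ER to the Golgi, 7 rose and 2 fell in null livers (6 and 0 without replicate 2), against 30 and 1 in control livers, with medians of 0.05 and 0.87. The rises numbered 4 without vehicle replicate 2. By scaling, 9 rose with arrays centred on their median and 10 on the deposited scale, and none fell under either. Uso1, a tether of arriving vesicles, went from 910.5, 1051 and 826 to 2516, 1962 and 2602, a change of 1.09 ± 0.13 [1.12]. Mcfd2, the cargo receptor subunit for clotting factors, changed by 0.87 ± 0.12 [0.82]. Tmed3, a cargo receptor of the p24 family, changed by 1.34 ± 0.20 [1.11] in null livers and by 2.81 in control livers, and this difference was called (-1.48 ± 0.28 [-1.70], adjusted p = 0.0381). That call was lost without vehicle replicates 1, 2 or 3 or tunicamycin replicates 1 or 3 (largest adjusted p 0.107). Sar1b (-0.47 ± 0.14 [-0.47]), the GTPase that starts COPII coats, and Sec16b (-0.74 ± 0.20 [-0.53]), which organises their exit sites, were called lower. Sar1b lost the call without vehicle replicates 1 or 3 or tunicamycin replicates 2 or 3 (largest adjusted p 0.142), and Sec16b without vehicle replicates 1 or 3 or tunicamycin replicates 2 or 3 (largest adjusted p 0.0941). Copa (0.05 ± 0.15 [-0.09]), Copb2 (-0.15 ± 0.25 [-0.45]), Sec31a (-0.10 ± 0.16 [-0.21]) and Kdelr1 (-0.28 ± 0.21 [-0.08]), of the COPI and COPII coats and of ER retrieval, were not called in null livers.

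Of 44 genes of N-glycosylation, the step that the drug blocks, 9 rose and 2 fell in null livers (8 and 1 without replicate 2), against 21 and 2 in control livers, with medians of 0.12 and 0.45. Pmm1, which makes mannose 1-phosphate, went from 44.5, 79.6 and 54.7 to 471, 228 and 500.3, a change of 2.25 ± 0.22 [2.49], against 2.45 in control livers. Gfpt1, the entry enzyme of hexosamine synthesis, rose by 2.26 ± 0.18 [2.19], from 536, 425 and 441 to 2541, 2576 and 2876, with a response lower than in control livers (-1.24 ± 0.25 [-1.29], adjusted p = 0.0431), a call lost without vehicle replicates 1 or 3 or tunicamycin replicates 1 or 3 (largest adjusted p 0.114). Gmppb, a subunit of the enzyme that makes GDP-mannose, was at 83.9, 118 and 87.1 and 273, 358 and 453 in null livers, a change of 1.55 ± 0.22 [1.42]. In control livers it was at 149, 95.7 and 78.6 and 1800.0, 2191 and 1967, a change of 3.84. Alg14, which helps add the second sugar to the lipid carrier, was called lower (-0.76 ± 0.17 [-0.69]), a call lost with arrays centred on their median, on the deposited scale and with the mean of probe sets. Under both of those scalings 11 genes of the list rose and 0 fell. Pgm3, which converts hexosamine phosphates, was not called in null livers (-0.70 ± 0.34 [-0.93]) and rose in control livers (1.78), a difference of -2.48 ± 0.48 [-2.71] with an adjusted p of 0.0411 and a call lost without vehicle replicates 1 or 3 or tunicamycin replicates 1 or 3 (largest adjusted p 0.11).

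Over the 6 ER lists together 59 of 181 genes rose in null livers and 122 in control livers. Of all genes tested 7.59% rose in null and 11.6% in control livers. For 153 of the 181 the signed change was lower in null than in control livers. Over all genes tested the median of that difference was 0.03. The interaction test called 27 of the 181 lower in null livers and 0 higher, against 120 of all 14568 genes lower (0.824%) and 2 higher (0.0137%). Without tunicamycin replicate 2 it called 30. The number depended on the arrays: it was 4 without vehicle replicate 1, 16 without vehicle replicate 2, 5 without vehicle replicate 3, 3 without tunicamycin replicate 1 and 11 without tunicamycin replicate 3.

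**Figure D3:**
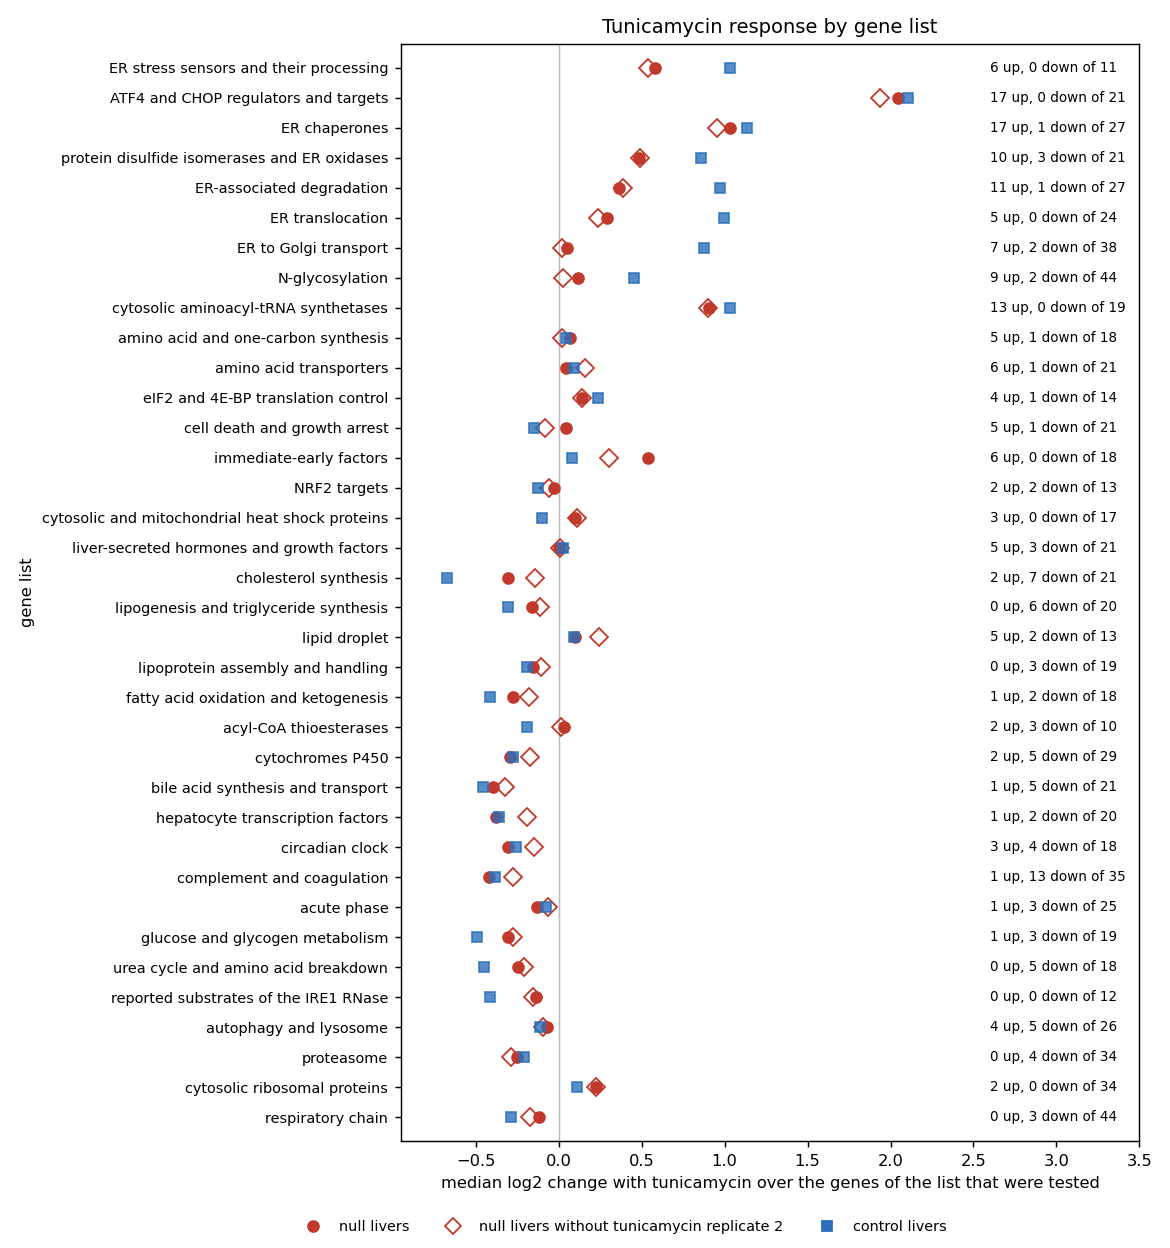
Median log2 change with tunicamycin (horizontal axis) over the tested genes of each list; red circles are null livers, open diamonds null livers without tunicamycin replicate 2 and blue squares control livers, and the text gives the genes called higher (up) and lower (down) in null livers. The ATF4 and CHOP list lies near 2 in all 3, and the ER to Golgi list is at 0.05 in null and 0.87 in control livers.

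Over all genes the same test found few responses that differed, nearly all lower in null livers. It called 120 lower (0.824%), of which 118 rose in control livers, 45 also rose in null livers, 69 were not called there and 6 fell. Their median change was 0.28 in null and 1.82 in control livers, and the test that picked them uses those same values. Without replicate 2, 124 were lower (0.851%) and 5 higher, and 102 were lower both ways. The count of 122 calls became 35 without vehicle replicate 1, 45 without vehicle replicate 3, 46 without tunicamycin replicate 1 and 73 without tunicamycin replicate 3. Tspyl2, a nucleosome assembly protein of the SET family, went from 25.0, 34.8 and 27.8 to 228, 214 and 237 in null livers and from 31.7, 34.2 and 32.2 to 1403, 1919 and 1571 in control livers. Its response differed by -2.60 ± 0.22 [-2.68], with an adjusted p of 0.000604. Both sets of tunicamycin arrays were above their vehicle arrays, and the null ones were below the control ones. P3h1, the collagen prolyl 3-hydroxylase of the ER, was at 84.8, 102 and 102 and 135, 108 and 161 in null livers, where it was not called (0.22 ± 0.15 [0.26]). In control livers it was at 126, 92.7 and 92.0 and 637, 683 and 492, and the difference was -1.96 ± 0.21 [-1.92] (adjusted p = 0.00271). Stx5a, the SNARE of fusion at the Golgi, went from 1148, 1288 and 1146 to 2589, 2632 and 2619 in null livers, a change of 0.88 ± 0.13 [0.78], and from 1335, 1373 and 1206 to 6899.5, 7425 and 6596 in control livers. Its difference was -1.33 ± 0.18 [-1.43] (adjusted p = 0.00792). Cad, which starts pyrimidine synthesis, was at 98.4, 89.6 and 69.0 and 378, 229 and 399.7 in null livers and at 65.8, 58.8 and 42.5 and 1014, 879.9 and 779.7 in control livers. Its difference was -1.93 ± 0.24 [-1.81] (adjusted p = 0.00792). The genes with a higher response in null livers were Arhgef2 (1.51 ± 0.24 [1.55]) and Bid (1.16 ± 0.19 [1.09]), which were chosen after their values were seen. The call of Arhgef2 was lost without vehicle replicate 1 (largest adjusted p 0.055), and that of Bid without vehicle replicate 1 or tunicamycin replicate 1 (largest adjusted p 0.0607).

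Most genes that load amino acids onto tRNA rose in null livers. Of 19 tested cytosolic aminoacyl-tRNA synthetases 13 rose and none fell, with a median change of 0.90 (11 without replicate 2), against 14 and 1 in control livers, median 1.04. Wars, the tryptophan enzyme, went from 195, 193 and 138 to 804, 938 and 1089, a change of 2.12 ± 0.17 [2.00]. Iars, for isoleucine, went from 919, 849.9 and 917 to 3229.7, 2852 and 3335, a change of 1.57 ± 0.14 [1.55], and Gars, for glycine, changed by 1.54 ± 0.13 [1.43]. Sars, for serine, changed by 1.30 ± 0.18 [1.26]. Of 18 tested genes of amino acid and one-carbon synthesis 5 rose and 1 fell (4 and 1 without replicate 2). Psat1, a transaminase of serine synthesis, was at 69.9, 43.3 and 37.2 with vehicle and 1531, 1869 and 1889.6 with tunicamycin, a change of 4.63 ± 0.22 [4.49]. Asns, which makes asparagine, was at 130.4, 243 and 412 and 1319.9, 2477 and 3037, a change of 2.91 ± 0.50 [2.72], and its promoter is printed above. Mthfd2, of mitochondrial folate metabolism, changed by 2.15 ± 0.49 [1.53], from 53.1, 65.7 and 28.6 to 163, 585 and 246, with replicate 2 the highest. The groups were apart for each of these genes, and the largest adjusted p was 0.0106. Mthfd1, the cytosolic folate enzyme, fell (-0.69 ± 0.14 [-0.76]). Of 21 amino acid transporters 6 rose and 1 fell (3 and 3 without replicate 2), and 2 to 5 rose when any 1 of the 6 arrays was left out. Slc3a2, the heavy chain of several exchangers, rose by 1.52 ± 0.27 [1.13], and Slc36a1, a lysosomal proton-coupled transporter, fell (-1.69 ± 0.17 [-1.65]). Among 14 genes of eIF2 and 4E-BP control 4 rose and 1 fell (3 and 1 without replicate 2), with Eif2b3, a subunit of the exchange factor that phosphorylated eIF2 blocks, at 0.66 ± 0.12 [0.64] and Eif4ebp2, a repressor of cap binding, at -0.83 ± 0.13 [-0.75], which was not called when its probe sets were averaged. The rises in that list numbered 2 without any of the vehicle replicates or without tunicamycin replicate 3.

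Some genes of growth arrest and cell death moved in large steps. Of 21 tested 5 rose (23.8%) and 1 fell (4.76%), with 5 and 1 without replicate 2, and 3 rose without vehicle replicate 2. Over all genes 7.59% rose and 9.23% fell, and the counts of the lists that follow are read against those shares. Gadd45a, a DNA damage and stress protein, was at 26.5, 46.1 and 49.1 and then 1507, 1936 and 852, a change of 4.48 ± 0.44 [4.14]. Cdkn1a, the cell cycle inhibitor p21, was at 133, 93.4 and 56.0 and then 873, 1181 and 2707, a change of 3.60 ± 0.38 [3.62]. Btg2, an antiproliferative gene, changed by 1.98 ± 0.23 [1.79]. Bmf, a pro-apoptotic BH3 protein, fell (-2.0 ± 0.24 [-2.10]), from 581, 334 and 638 to 147, 133 and 125. The groups did not overlap for Gadd45a, Cdkn1a and Bmf. Of 18 immediate-early factors 6 rose (33.3%) and none fell (7 and 1 without replicate 2), against 3 and 3 in control livers. Myc, the growth factor-induced regulator, went from 35.6, 37.9 and 83.7 to 706, 654 and 849, a change of 3.38 ± 0.28 [3.34]. Klf10 (2.06 ± 0.23 [2.17]) and Jun (1.65 ± 0.27 [1.70]), a subunit of AP-1, rose as well. Egr1 (2.15 ± 0.64 [2.48]) was called with all arrays and lost the call without vehicle replicates 1, 2 or 3 or tunicamycin replicates 1 or 3 (largest adjusted p 0.131). Of 13 NRF2 targets 2 rose, Srxn1 (1.41 ± 0.16 [1.48]), which repairs peroxiredoxins, and Abcc4 (2.39 ± 0.27 [2.36]), an export pump, and 2 fell (2 and 3 without replicate 2), with Nqo1, a quinone reductase, at -1.02 ± 0.18 [-1.10]. In that list 4 rose without tunicamycin replicate 1. Of 17 heat shock proteins of the cytosol and mitochondria 3 rose (2 and 1 without replicate 2), with the mitochondrial Hspa9 at 0.81 ± 0.15 [0.77] and the mitochondrial protease Lonp1 at 0.75 ± 0.17 [0.73]. Of 26 genes of autophagy and lysosome 4 rose (15.4%) and 5 fell (19.2%), against 7.59% and 9.23% of all genes (3 and 3 without replicate 2). After centring on the median 1 was called lower. None fell without vehicle replicate 3 or without tunicamycin replicate 3, and 2 fell without vehicle replicate 2. Sqstm1, the autophagy receptor p62, rose from 1611, 2933 and 2633 to 7721, 7734 and 7405, a change of 1.52 ± 0.21 [1.46], and Atg13, of the initiating kinase complex, changed by 1.27 ± 0.28 [1.28], a call lost with the 6 null arrays alone.

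Several genes with large changes lie outside these lists. Tnfrsf12a, the receptor for TWEAK, went from 17.7, 103 and 59.9 to 1109, 751 and 1480.5, a change of 3.89 ± 0.40 [4.03], and Krt23, a keratin that marks injured liver, went from 69.0, 57.3 and 64.4 to 1730.1, 588 and 1524, a change of 3.75 ± 0.34 [4.12]. Ddx28, a mitochondrial RNA helicase, changed by 3.97 ± 0.26 [4.20] and Irx3, a homeobox factor, by 3.74 ± 0.35 [3.26]. Among the falls, Nxpe2 changed by -4.14 ± 0.25 [-3.95], Cux2, a homeobox factor, by -2.68 ± 0.28 [-2.51], Gdpd3, a glycerophosphodiesterase, by -3.14 ± 0.55 [-3.92] and Sult3a1, a sulfotransferase, by -3.10 ± 0.61 [-2.35]. Sult3a1 was at 4274, 6526 and 4413 with vehicle and 2287, 192 and 620.2 with tunicamycin.

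**Figure D4:**
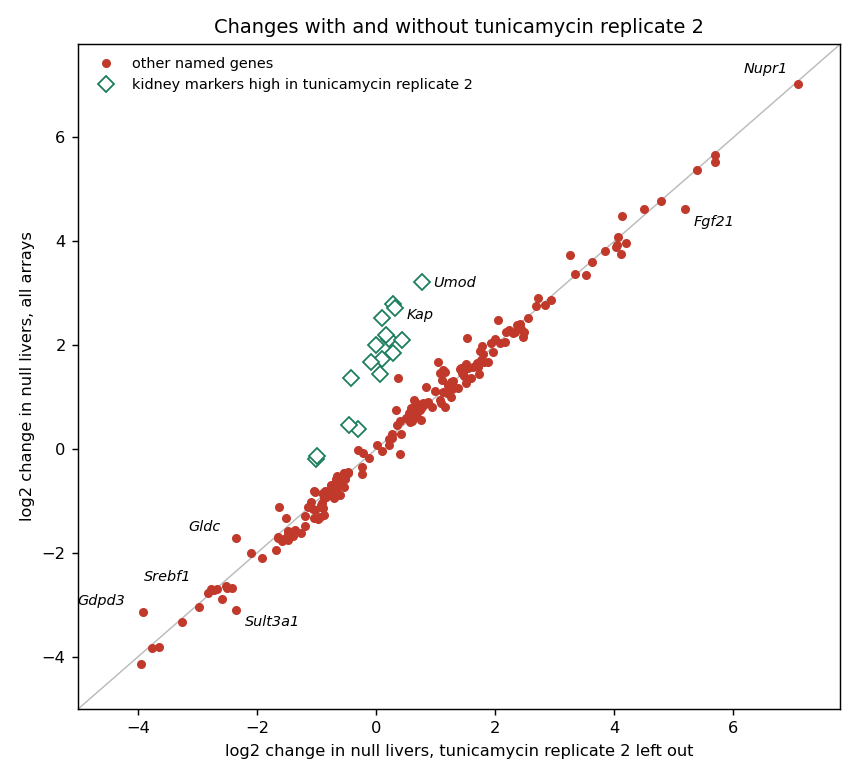
Log2 change with tunicamycin in null livers with all arrays (vertical axis) and with tunicamycin replicate 2 left out (horizontal axis) for 229 named genes; open diamonds are kidney markers high in replicate 2, red points the other genes, and the diagonal marks equal values. Umod and Kap are at 3.22 and 2.72 with all arrays and at 0.78 and 0.32 without replicate 2, while Nupr1 is at 7.03 and 7.08.

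Fgf21, a liver hormone that Atf4 induces, was among the steepest rises. It was at 17.8, 12.7 and 8.32 with vehicle and 1452, 279 and 979.6 with tunicamycin, with replicate 2 the lowest of the treated arrays, a change of 4.61 ± 0.41 [5.19] (adjusted p = 2.52e-05). Of 21 tested liver hormones and growth factors 5 rose and 3 fell (5 and 3 without replicate 2). Igfbp1, a binding protein of insulin-like growth factors, went from 3905, 3353 and 3243 to 13451, 11801 and 13263, a change of 1.72 ± 0.19 [1.76]. Igfals, the acid-labile subunit that holds these factors in plasma, fell from 952, 1157 and 988 to 199.9, 104 and 118, a change of -3.05 ± 0.22 [-2.97]. The arrays were apart for both. Igf1 itself fell (-0.79 ± 0.16 [-0.66]), as did Lect2, a secreted hepatokine (-1.17 ± 0.19 [-1.02]).

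Genes of cholesterol synthesis and lipogenesis fell more often than they rose. Over all genes 7.59% rose and 9.23% fell. Of 21 cholesterol synthesis genes and regulators 2 rose and 7 fell, with a median of -0.31 (0 and 5 without replicate 2), against 1 and 9 in control livers. None rose when any 1 of the null arrays was left out, except tunicamycin replicate 1, without which 2 rose. Idi1, which isomerises isopentenyl diphosphate, went from 2699, 1785 and 3737 to 1303, 464 and 831, a change of -1.93 ± 0.30 [-1.68]. Dhcr7, a late enzyme of the path, changed by -1.56 ± 0.26 [-1.36], Msmo1, a sterol oxidase, by -1.58 ± 0.21 [-1.49] and Insig1, which holds SREBP in the ER, by -1.77 ± 0.36 [-1.58]. The rises were Mvd (0.80 ± 0.23 [0.59]), lost without vehicle replicates 1, 2 or 3 or tunicamycin replicates 2 or 3 (largest adjusted p 0.11), and Insig2 (0.57 ± 0.17 [0.60]), lost without vehicle replicates 1, 2 or 3 or tunicamycin replicates 2 or 3 (largest adjusted p 0.157). Of 20 genes of lipogenesis and triglyceride synthesis 6 fell and none rose (5 without replicate 2, and 3 after centring on the median). Srebf1, the regulator of lipogenic genes, went from 2102, 1517 and 1476 to 457, 248 and 238, a change of -2.69 ± 0.24 [-2.68], with every treated array below every vehicle array. Lpin2 (-1.15 ± 0.26 [-1.05]), a phosphatidate phosphatase, and Agpat2 (-1.11 ± 0.19 [-0.92]), an acyltransferase, fell, and Fasn, the fatty acid synthase, was called at -0.75 ± 0.17 [-0.70]. The call of Fasn was lost with arrays centred on their median, on the deposited scale and with the 6 null arrays alone. Lpin2 was not called when probe sets were averaged or when the fit included each array's actin ratio. Of 13 lipid droplet genes 5 rose and 2 fell (5 and 2 without replicate 2), and none was called lower on the deposited scale. G0s2, the inhibitor of the lipase Atgl, went from 1206, 1592 and 855 to 6165, 4033 and 5221, a change of 1.88 ± 0.34 [1.97]. Hilpda, another inhibitor of that lipase, changed by 1.08 ± 0.20 [1.19], and Vldlr, the lipoprotein receptor that Atf4 induces, by 1.57 ± 0.34 [1.42]. Vldlr and G0s2 were not called in control livers (0.58 and 0.83), but no interaction was called for either (adjusted p = 0.631 and 0.611). Of 19 genes of lipoprotein assembly and handling 3 fell and none rose (0 and 3 without replicate 2). The falls were 15.8% of the list, against 9.23% of all genes, and 6 fell without tunicamycin replicate 1. The 3 were Lipg, the endothelial lipase, which went from 502, 645 and 470.4 to 36.0, 22.1 and 24.4 (-3.83 ± 0.22 [-3.77]), Tm6sf2, which aids loading of lipid onto particles (-1.69 ± 0.28 [-1.5]), and Lrp1, a remnant receptor (-1.59 ± 0.19 [-1.47]). Apob was not called (-0.09 ± 0.47 [0.40]). Of 10 acyl-CoA thioesterases 2 rose and 3 fell (2 and 2 without replicate 2). Acot2, of mitochondria, went from 543, 353 and 489 to 4768, 2973 and 3384 (2.77 ± 0.23 [2.84]), and Acot3, of peroxisomes, from 2117, 2693 and 3310.3 to 575, 146 and 109 (-3.80 ± 0.43 [-3.65]), so that these related genes changed in opposite directions. Of 18 genes of fatty acid oxidation and ketogenesis 1 rose (5.56%) and 2 fell (11.1%), near the 7.59% and 9.23% of all genes (1 and 2 without replicate 2). The rise was Pdk4, which blocks pyruvate oxidation (2.48 ± 0.32 [2.05]). None of the list was called lower after centring on the median. Ppargc1a, the coactivator of oxidative genes, was not called (-1.12 ± 0.49 [-1.63], adjusted p = 0.15), and was called in control livers (-1.91), with no interaction called (adjusted p = 0.882).

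**Figure D5:**
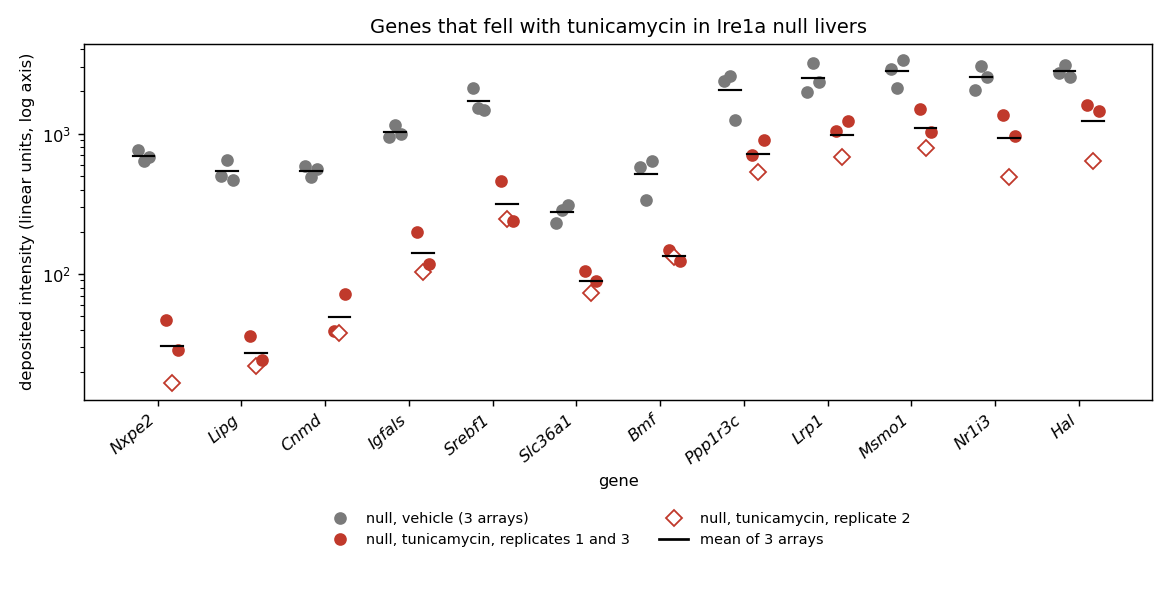
Deposited intensity (vertical log axis, linear units) of genes that fell, by gene, in null livers; grey points are the 3 vehicle arrays, red points tunicamycin replicates 1 and 3, open diamonds tunicamycin replicate 2, and bars the mean of 3 arrays. For every gene shown the tunicamycin arrays lie below the vehicle arrays, and replicate 2 is often the lowest of them.

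Shares of calls in lists of hepatocyte function are read against the 7.59% of all genes that rose and the 9.23% that fell. Of 20 tested hepatocyte transcription factors 1 rose and 2 fell (1 and 2 without replicate 2), with a median of -0.37 against -0.07 over all genes. That is 5% and 10% of the list, near the shares of all genes. The falls numbered 5 without tunicamycin replicate 1 and 1 without vehicle replicates 2 or 3, and on the deposited scale 3 rose and 1 fell. Nr1i3, the xenobiotic receptor CAR, went from 2032, 3056 and 2521 to 1350.3, 489.8 and 964, a change of -1.75 ± 0.27 [-1.47]. Hnf4a was not called (0.29 ± 0.11 [0.26]), nor was Cebpa (-0.88 ± 0.29 [-0.63], adjusted p = 0.0577), which was called in control livers (-1.44), with no interaction called (adjusted p = 0.825). Of 29 cytochromes P450 2 rose (6.9%) and 5 fell (17.2%), and 2 and 2 were called without replicate 2. The falls numbered 2 after centring, on the deposited scale and without vehicle replicates 2 or 3, and 7 without tunicamycin replicate 1. Falls over all 14568 genes moved with these settings too. They numbered 703 after centring, 512 on the deposited scale, 1191 and 869 without vehicle replicates 2 and 3, and 1163 without tunicamycin replicate 1. Cyp2b10, a target of CAR, rose from 963, 1384 and 999.8 to 2877, 5304 and 7288, a change of 1.89 ± 0.31 [1.74], and Cyp2g1 fell (-2.09 ± 0.24 [-1.91]). Of 21 genes of bile acid synthesis and transport 1 rose and 5 fell (1 and 5 without replicate 2). Abcg5 (-1.61 ± 0.28 [-1.25]) and Abcg8 (-1.68 ± 0.33 [-1.40]), partners in the sterol exporter, fell, and Abcb4, the phospholipid exporter, rose (0.89 ± 0.19 [1.08]). Cyp7a1, the rate-limiting enzyme of bile acid synthesis, was not called (-0.04 ± 0.26 [0.10]). Of 18 clock genes 3 rose and 4 fell (3 and 2 without replicate 2), and none was called lower on the deposited scale. The falls numbered 1 without vehicle replicates 1 or 2 or tunicamycin replicate 3. Arntl, which encodes Bmal1, went from 40.9, 31.8 and 23.6 to 197, 177 and 407, a change of 2.32 ± 0.26 [2.43], and Nfil3, a repressor in the clock's output, from 131, 202 and 115 to 934, 641 and 1019, a change of 2.23 ± 0.20 [2.30]. Rora, an activator of Arntl, rose (1.17 ± 0.16 [1.27]), and Hlf, an output factor, was called lower (-1.08 ± 0.20 [-0.93]) except on the deposited scale. Livers were all taken at 8 h after injection, and the sources used here give no time of day.

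Of 35 complement and coagulation genes 1 rose and 13 fell, with a median of -0.42 (1 and 8 without replicate 2). The number of falls was lower without each of the 6 null arrays in turn, at 7 to 10. This count depended on scaling, with 4 falls after centring on the median and 1 on the deposited scale. Mbl1, a mannose-binding lectin, changed by -0.93 ± 0.18 [-0.71], its protease Masp2 by -0.87 ± 0.19 [-0.67] and coagulation factor F7 by -0.89 ± 0.21 [-0.61]. Mbl1 kept its call under both scalings, Masp2 lost it on the deposited scale, and F7 lost it under both and with the 6 null arrays alone. Of 25 acute phase genes 1 rose (4%) and 3 fell (12%), against 7.59% and 9.23% of all genes (1 and 3 without replicate 2). Socs3, the inhibitor of cytokine signalling, changed by -1.72 ± 0.29 [-1.55], but its change was -0.49, and not called, without the probe sets whose names end in _x_at or _s_at. Stat3, the factor that drives this response, changed by -1.12 ± 0.17 [-1.15]. Of 19 genes of glucose and glycogen metabolism 1 rose (5.26%) and 3 fell (15.8%), with 1 and 3 without replicate 2. Gys2, the liver glycogen synthase, changed by -1.34 ± 0.25 [-0.98], and Ppp1r3c, which targets a phosphatase to glycogen, by -1.70 ± 0.25 [-1.64]. Of 18 genes of the urea cycle and amino acid breakdown 5 fell and none rose (4 without replicate 2). Hal, which breaks down histidine, changed by -1.48 ± 0.22 [-1.19], Asl, of the urea cycle, by -0.70 ± 0.15 [-0.73] and Hgd, of tyrosine breakdown, by -0.69 ± 0.13 [-0.64]. Asl lost its call on the deposited scale. The falls of that list numbered 3 on that scale and without tunicamycin replicate 3.

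Among 12 tested mRNAs reported as substrates of the Ire1 RNase none was called in null livers in either direction by limma, with a median of -0.14 (-0.16 without replicate 2), against 0 rises and 5 falls in control livers, median -0.41. Col6a1 was at -0.57 ± 0.19 [-0.51] in null livers and -0.64 in control livers, and Ces1d, a carboxylesterase, at -0.73 ± 0.24 [-0.67] and -1.90. At an unadjusted p under 0.05, 4 of the 12 were lower and none higher in null livers. At the same unadjusted threshold 3 of them had a higher response in null than in control livers and none a lower one. A fall was called for 1 of them without vehicle replicate 2 and for 1 without tunicamycin replicate 1. No interaction was called for Col6a1 or Ces1d (adjusted p = 0.994 and 0.199). Of 34 proteasome genes 4 fell and none rose (0 and 4 without replicate 2), and 0 were called after centring on the median. The falls were 11.8% of the list, near the 9.23% of all genes. The falls numbered 6 without vehicle replicate 1 and 1 without vehicle replicates 2 or 3 or tunicamycin replicates 1 or 3. Of 34 tested ribosomal protein genes 2 rose, or 5.88% against 7.59% of all genes (1 and 0 without replicate 2). Rpl12 was among them (1.68 ± 0.26 [1.88]), and 5 rose without vehicle replicate 2 and on the deposited scale. Of 44 respiratory chain genes 3 fell, or 6.82% against 9.23% of all genes (0 and 4 without replicate 2). Sdhd, of complex II, was among them (-0.94 ± 0.14 [-0.87]), a call lost without the probe sets named _x_at or _s_at. In that list 1 fell without vehicle replicate 1, without tunicamycin replicate 3 and on the deposited scale.

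Few markers of other liver cells were called. Kupffer cell and macrophage markers, 13 tested, summed to an intensity between 5671 and 11744 on the null tunicamycin arrays and between 6861 and 11461 on the null vehicle arrays, which overlap, and 2 of them were called lower. They were Adgre1 (-0.81 ± 0.21 [-0.86]), the F4/80 antigen, lost without vehicle replicate 1 or tunicamycin replicate 1 (largest adjusted p 0.0803), and Timd4 (-0.93 ± 0.23 [-0.84]), lost without vehicle replicate 1 or tunicamycin replicate 1 (largest adjusted p 0.0669). With arrays centred on their median or on the deposited scale none of the 13 was called lower and 1 was called higher, while 4 were called lower without tunicamycin replicate 3 and none without vehicle replicate 1 or tunicamycin replicate 1. Cd79b, of B cells, was called lower (-0.77 ± 0.13 [-0.75]), and the other 7 of 8 lymphocyte markers tested were not called. Those 7 include the B cell genes Cd79a (-0.08 ± 0.20 [-0.10]), Ms4a1 (-0.05 ± 0.25 [0.03]) and Ighm (0.02 ± 0.22 [-0.12]). Alas2, of red cell precursors, was called lower (-1.33 ± 0.28 [-1.04]). Slc4a1, the other red cell gene tested, was not called (0.29 ± 0.35 [-0.24]). Rgs5, of pericytes, was called lower (-0.84 ± 0.19 [-0.65]), a call lost with arrays centred on their median, on the deposited scale, with the mean of probe sets and with the 6 null arrays alone. The endothelial genes Cdh5 (-0.34 ± 0.18 [-0.23]) and Stab2 (-0.48 ± 0.23 [-0.24]) were not called, and neither were the neutrophil genes S100a8 (0.09 ± 0.34 [0.22]) and S100a9 (0.80 ± 0.55 [1.16]). Epcam, a bile duct and kidney tubule gene, had a change of 1.38 ± 0.64 [0.36] and was highest in replicate 2.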

How the data were processed

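Liver RNA of 12 samples in 4 groups of 3 was measured on Affymetrix Mouse Genome 430 2.0 arrays. The authors' deposited values are a linear intensity for each of 45101 probe sets, in the series' value table; the sources used here do not name the summarisation method. The number of arrays limits the precision.

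The members and gene lists were chosen with earlier results of these data known, so their counts are descriptions. Intensities were taken as log2(intensity + 16) and quantile normalized over 12 arrays without 64 control probe sets. The dimmest 30% of probe sets by mean were dropped, and the brightest probe set was kept for each gene among the 34945 probe sets with 1 platform symbol (932 have several and 9160 none), which left 14568 genes. Adding 16 understates the change of dim genes. limma 3.58.1 in R 4.3.3 fitted 4 group means (lmFit, eBayes, 8 residual degrees of freedom), with Benjamini-Hochberg adjustment over all genes and an adjusted p under 0.05 as a call. The fit was repeated on 11 arrays without null tunicamycin replicate 2. The interaction is the null minus the control response.

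Named genes were anchor genes and the 15 largest rises and 15 largest falls called with and without replicate 2 whose arrays did not overlap. Up to 4 called members of each list were added, with called members that opposed it. The 15 interaction calls with the smallest adjusted p in the fit of all arrays were also named. Ppp1r15a, Chac1, Eif2ak3, Fkbp11, Pgm3, Arhgef2, Bid and the list members given as not called beyond the anchors were chosen after their values were seen. Tested on simulated data for this comparison over 14568 genes, the fit called 59% of 100 genes changed 2-fold and 98% of 100 changed 4-fold. No other gene was changed, the noise was independent and normal, and 9 unchanged genes were called. In the data 2449 genes were called, so the adjusted threshold was less strict there and these shares do not give the power of the comparison. The interaction test was not simulated. Promoters came from RefSeq's table (GRCm38.p6). The alternatives tried were the pseudocount, the filter, the scaling, the choice of probe sets, limma's options, array weights, the RNA ratios as covariates, a replicate block, the 6 null arrays alone and each null array left out.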

Additional observations from a re-analysis of the deposited data

Results flagged for a closer look

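The 15 genes given here had the smallest adjusted p of the 122 called by the interaction test in limma. Their number was set in advance, and 102 genes were called lower with and without null tunicamycin replicate 2. For these 15 the response to tunicamycin differed between null and control livers with and without that array. In each the response was lower in null livers, and each call remained when any 1 of the 6 null arrays was left out (largest adjusted p 0.038). The values are null minus control responses on the log2 scale, with the value without replicate 2 in square brackets.

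The difference was -2.77 ± 0.28 [-2.89] for Zfp9, a zinc finger gene, -2.74 ± 0.30 [-2.87] for Nde1, a dynein regulator, and -2.60 ± 0.22 [-2.68] for Tspyl2. It was -2.46 ± 0.33 [-2.18] for Slc17a9, the vesicular nucleotide transporter, -2.29 ± 0.31 [-2.42] for Gmppb, -2.29 ± 0.20 [-2.26] for Gnat2, a transducin subunit, and -2.29 ± 0.30 [-2.52] for 6430548M08Rik. It was -2.14 ± 0.29 [-2.02] for Ung, a uracil DNA glycosylase, -2.14 ± 0.27 [-2.08] for Sgsm1 and -2.13 ± 0.28 [-2.02] for Hapln4, a link protein of hyaluronan. It was -1.96 ± 0.21 [-1.92] for P3h1, -1.93 ± 0.24 [-1.81] for Cad, -1.86 ± 0.25 [-1.83] for Parn, a poly(A) ribonuclease, -1.68 ± 0.22 [-1.83] for Gmppa, the partner of Gmppb, and -1.33 ± 0.18 [-1.43] for Stx5a.

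In null livers Hapln4 (0.30 ± 0.20 [0.41]), Sgsm1 (0.54 ± 0.19 [0.60]), P3h1 (0.22 ± 0.15 [0.26]) and Parn (0.19 ± 0.17 [0.22]) were not called, while in control livers they changed by 2.43, 2.67, 2.18 and 2.05. Ung went from 225, 205 and 175 to 577, 326 and 543 in null livers and from 203, 204 and 115 to 1941, 2001 and 1509 in control livers. Nde1 went from 85.4, 117 and 114 to 255, 285 and 309.8 in null livers and from 140.2, 115 and 99.7 to 2242, 2965 and 1663 in control livers.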

How the results depend on the processing

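Of 190 called genes that the rule named, 122 kept their direction and their call under every setting, 67 lost the call under at least 1, and Ern1 changed sign, to -0.0042 with the mean of its probe sets. The actin ratio as a covariate took the call from 33 and leaving out replicate 2 from 23. The 2449 calls in null livers ranged from 1613 to 2186 when a single null array was left out, were 1491 with the 6 null arrays alone, and lay between 1651 (actin ratio) and 2962 (array weights) under the other settings. The 122 interaction calls ranged from 35 to 129 when a single null array was left out, and numbered 71 with a pseudocount of 1, 186 with a pseudocount of 64 and 225 with array weights. Null replicates that share a number had correlations of 0.12, -0.09 and -0.14 between their deviations, and those with unlike numbers had -0.08 to 0.21. So few values show no pairing but cannot exclude a pairing or batch by number. With the replicate number as a block 2144 genes and 59 interactions were called. The cause of these shifts was not tested.

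With 3 arrays a group, changes under 2-fold are often missed. Dim probe sets, cross-hybridising probe sets and genes without a platform symbol limit what was seen, and the part of the kidney RNA of replicate 2 in genes that both organs express was not tested. Genotype is known from labels alone.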
